A study of Rattus norvegicus with 30 samples.

Results

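The comparison described here asks whether a zinc-deficient diet changed gene expression in the oesophagus differently in rats that lack miR-31 than in rats without a gene edit. It was defined by the groups of the design, with earlier results of these data known. For each gene, the diet difference in unedited rats was subtracted from the diet difference in knockout rats, in log2 units. The result is called the interaction below. It uses 20 of the 30 arrays of the series, 1 array per rat. The knockout rats were 6 zinc-deficient (ZD) and 4 zinc-sufficient (ZS) miR-31-/- rats, a line made by CRISPR/Cas9 in Sprague-Dawley rats. The unedited Sprague-Dawley rats were 5 on ZD and 5 on ZS and received no antimiR oligonucleotide. All rats were males put on the diets at 4 weeks of age, and all were given the oesophageal carcinogen N-nitrosomethylbenzylamine (NMBA). The unedited rats received 4 weekly doses of 2 mg/kg by stomach tube from week 5, and the rats were killed 15 weeks after dosing began; for the knockout rats the labels refer to the same assay without repeating its doses. Pair-feeding of ZS rats to the intake of ZD rats is stated for the unedited rats and not for the knockout rats. No array of a rat without NMBA was analysed here, and neither were wild-type littermates of the knockout rats. The labels do not say how many founders the knockout line had.

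Genotype and experiment coincide: all knockout rats belonged to one experiment and all unedited rats to another, so that an effect of the gene edit and any other difference between the experiments cannot be told apart. The arrays show this split. Their median log2 value lay between 5.81 and 5.93 on the 10 knockout arrays and between 5.37 and 5.45 on the 20 other arrays of the series. A shift shared by all arrays of one experiment cancels in the interaction, because each diet difference is taken within one experiment; a difference in scale between the experiments does not. Levels are therefore compared between diets within a genotype, and only those differences are compared between genotypes.

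MicroRNAs are short RNAs that pair, mainly through the bases of their seed, with messenger RNAs and lower their amount or translation. miR-31 is abundant in squamous epithelium and rises in squamous carcinomas, and lack of zinc makes the rodent oesophagus proliferate, become inflamed and form more tumours after NMBA. Published miR-31 targets include Stk40, a repressor of NF-kB signalling, and Egln3, a prolyl hydroxylase of the oxygen-sensing pathway. The 2 mature strands of the edited locus are shown because they are the sequences that the knockout rats are described as lacking and the unedited rats carry, as RefSeq gives them on rat build GRCr8, with the seed (bases 2 to 8) in capitals.
rno-miR-31a-5p: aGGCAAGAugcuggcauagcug
rno-miR-31a-3p: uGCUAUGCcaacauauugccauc
The first lies at chr5:108714906-108714927 and the second at chr5:108714869-108714891, both on the minus strand. The strands have different seeds. The edit could not be checked on these samples, because no value for mature miR-31 was used here.

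The tissue was labelled as oesophageal epithelium. Of 9 markers of stratified squamous epithelium, 7 were measured (Krt5, Krt14, Krt13, Krt4, Dsp, Perp and Sfn), and all lay between 11.86 and 14.27 log2 units on each of the 20 arrays, far above the array medians. The samples also held other tissue. The mean log2 level of 19 smooth muscle genes was 8.91 to 10.32 in ZD knockout rats against 10.10 to 10.91 in ZS knockout rats, and 7.08 to 7.80 in ZD unedited rats against 8.48 to 9.79 in ZS unedited rats. It was thus lower on ZD in both genotypes, with overlap only among the knockout rats. In such bulk samples fewer cells of a type and less RNA per cell cannot be told apart, for muscle as for the other cell types below. Markers of salivary gland, a possible contaminant, were low on the scale. The mean log2 level of the 8 measured genes of that list was 3.64 to 4.09 over the 20 arrays. The lowest values quoted here are those of Prb1 and Pip, between 2.30 and 3.24 on all 20 arrays.

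Some arrays stood apart. Affymetrix arrays carry control probe sets near the 3' and the 5' end of a few transcripts, and the difference between the ends is used as a sign of RNA quality. For beta-actin the 3' minus 5' difference was 1.20 to 2.03 on the 4 ZS knockout arrays and at least 2.29 on the other 26 arrays of the series. For hexokinase it was 1.41 to 1.65 on those 4 arrays and at most 0.52 on the other 26. The 5S ribosomal RNA control was 5.67 to 6.12 on those 4 arrays and at least 7.27 on the others. In each of these 3 measures all 4 ZS knockout arrays therefore lay outside the range of every other group. The beta-actin and hexokinase differences went opposite ways, the first lower and the second higher. The GAPDH difference of the 4 arrays, 0.01 to 0.49, overlapped that of the other 26, 0.13 to 1.23. Their dap spike-in difference overlapped that of the ZD knockout arrays. The differences between the ends thus gave no single direction as a sign of RNA quality. ZD knockout array 35 had the highest beta-actin difference of the series at 4.08, beside a GAPDH difference of 1.23, and ZS knockout array 32 had the highest level of the macrophage and MHC class II list at 9.48, against 7.72 to 8.55 on the other 3 ZS knockout arrays. The beta-actin, hexokinase and 5S ribosomal RNA controls separate the same groups as the diet in knockout rats. A diet difference in those rats cannot be told apart from the difference in these controls. By the labels' account all RNA passed the same integrity minimum. Results below are given with all arrays and, where they rest on arrays 32 and 35, also without both. In a fit with the beta-actin difference as a covariate most calls were lost; because that measure differs between the ZD and ZS knockout groups, such a fit also removes diet effect. Of the genes named below as past the interaction threshold, those that also passed in that fit were Cyp26b1, Cryba4, Ptgds, Id3, Ppp6c, Il1rn, Vegfa, Egr2, Egfl7, Slc25a3, Rab14, Capns1 and Elf5, and every other such gene lost its call there.

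The diet changed different genes, or changed genes by a different amount, in knockout and unedited rats for 1193 of 14217 genes (limma interaction, adjusted p under 0.05), which is 8.39% of the genes tested. Of these, 537 genes (3.78%) had a higher interaction, meaning that ZD minus ZS was more positive in knockout rats, and 656 (4.61%) had a lower one. At least 1 log2 unit was reached by 87 of the higher and 132 of the lower genes. The genes that passed are those with the most unequal diet differences, and so the signs of these are given as a description. Among the 537 the median diet difference was 0.32 in knockout and -0.26 in unedited rats, and among the 656 it was -0.43 in knockout and 0.20 in unedited rats, against 0.01 and 0.00 over all genes. The 2 diet differences had opposite signs for 444 of the 537 and 519 of the 656, and for 40.5% of all 14217 genes. With arrays 32 and 35 left out the number of genes was 533, of which 509 were among the 1193. The share with a higher interaction was 45%, and 58.5% of 959 genes when the arrays were centred and scaled to a common spread.

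Taken alone, the diet difference passed the same threshold for 3049 genes (21.4%) in knockout rats and for 1974 (13.9%) in unedited rats. With the smooth muscle level as a covariate these numbers were 1543 in knockout and 146 in unedited rats. In unedited rats that level did not overlap between the diets, so such a fit also removes diet effect. Without ZS array 32, 1566 genes passed in knockout rats, and without ZD array 14, 1191 passed in unedited rats. In both genotypes 608 genes passed, 549 of them in the same direction, which is 18% of the knockout calls and 27.8% of the unedited calls, and 59 in opposite directions. Over the 14217 genes the 2 diet differences, which share no arrays, had a Pearson correlation of 0.35 and a Spearman correlation of 0.30, given as a description since genes are not independent. Of the 537 genes with a higher interaction, 246 passed the diet test in knockout rats alone, 199 in unedited rats alone, 35 in both with opposite signs, 3 in both with the same sign and 54 in neither. Of the 656 with a lower interaction, 422 passed in knockout rats alone, 155 in unedited rats alone, 24 in both with opposite signs, 4 in both with the same sign and 51 in neither. Most of the called genes passed the diet test in 1 genotype alone. Picking genes by unequal diet differences favours this, so it is given as a description. Over all 14217 genes, 3049 passed in knockout rats and 1974 in unedited rats, with 608 in both.

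**Figure D1:**
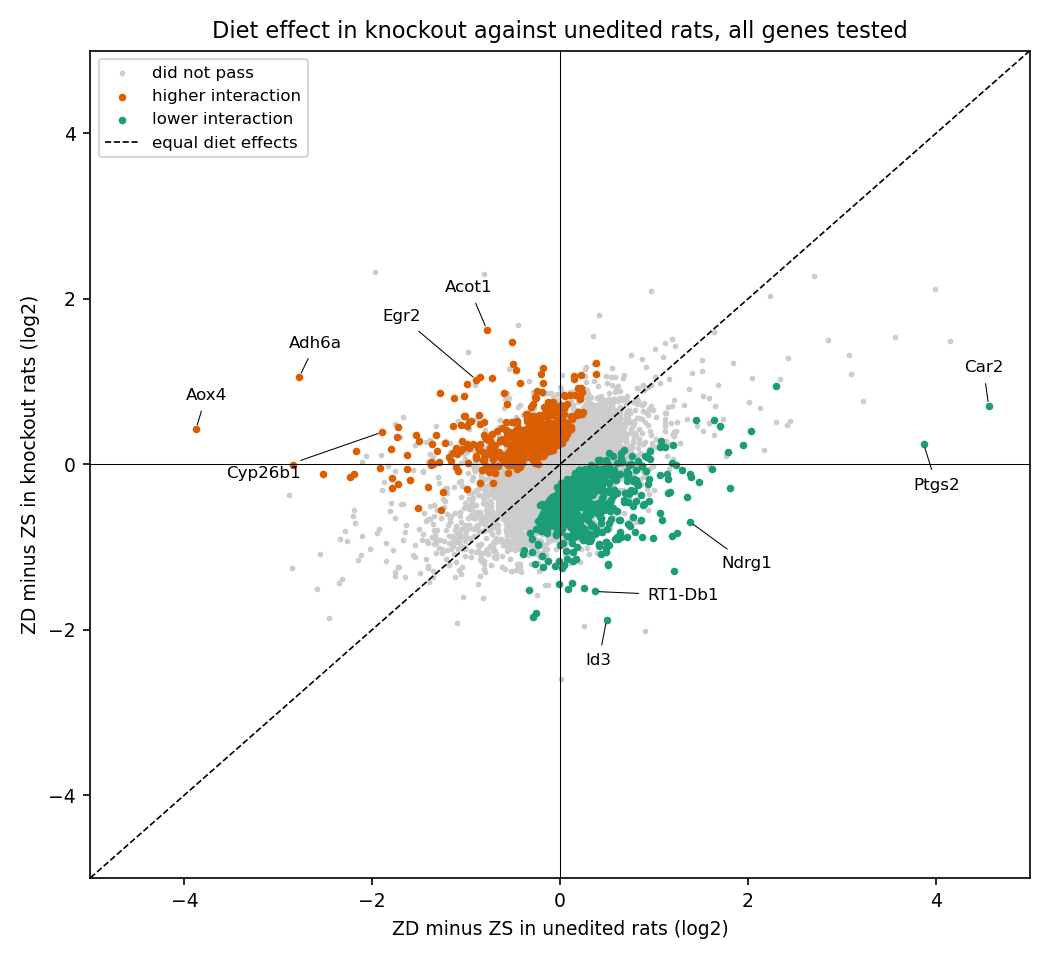
Diet difference (ZD minus ZS, log2) of 14217 genes in knockout rats (vertical axis) against unedited rats (horizontal axis). Orange points are the 537 genes with a higher interaction, green points the 656 with a lower one, grey points did not pass, and the dashed line marks equal diet effects; of the genes past the threshold, Aox4 and Car2 lie farthest from it on either side.

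Among the largest interactions, the diet effect that passed the test was more often that of the unedited rats. Among all called genes it was more often that of the knockout rats. Of the higher genes, 246 passed in knockout rats alone and 199 in unedited rats alone, and of the lower genes 422 and 155. Both statements describe genes picked by their unequal diet differences. Of the 15 genes with the largest higher interaction, 12 had a diet effect past the threshold in unedited rats, all of them lower on ZD, 2 had one in knockout rats (Acot1 and Serpinb7, both higher on ZD), and Hpd passed in neither. Of the 15 with the largest lower interaction, 9 passed in unedited rats, all higher on ZD, and 6 in knockout rats, all lower on ZD. Slfn4 and Sele passed in both, and Plac8 and Ptprc in neither.

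**Figure D2:**
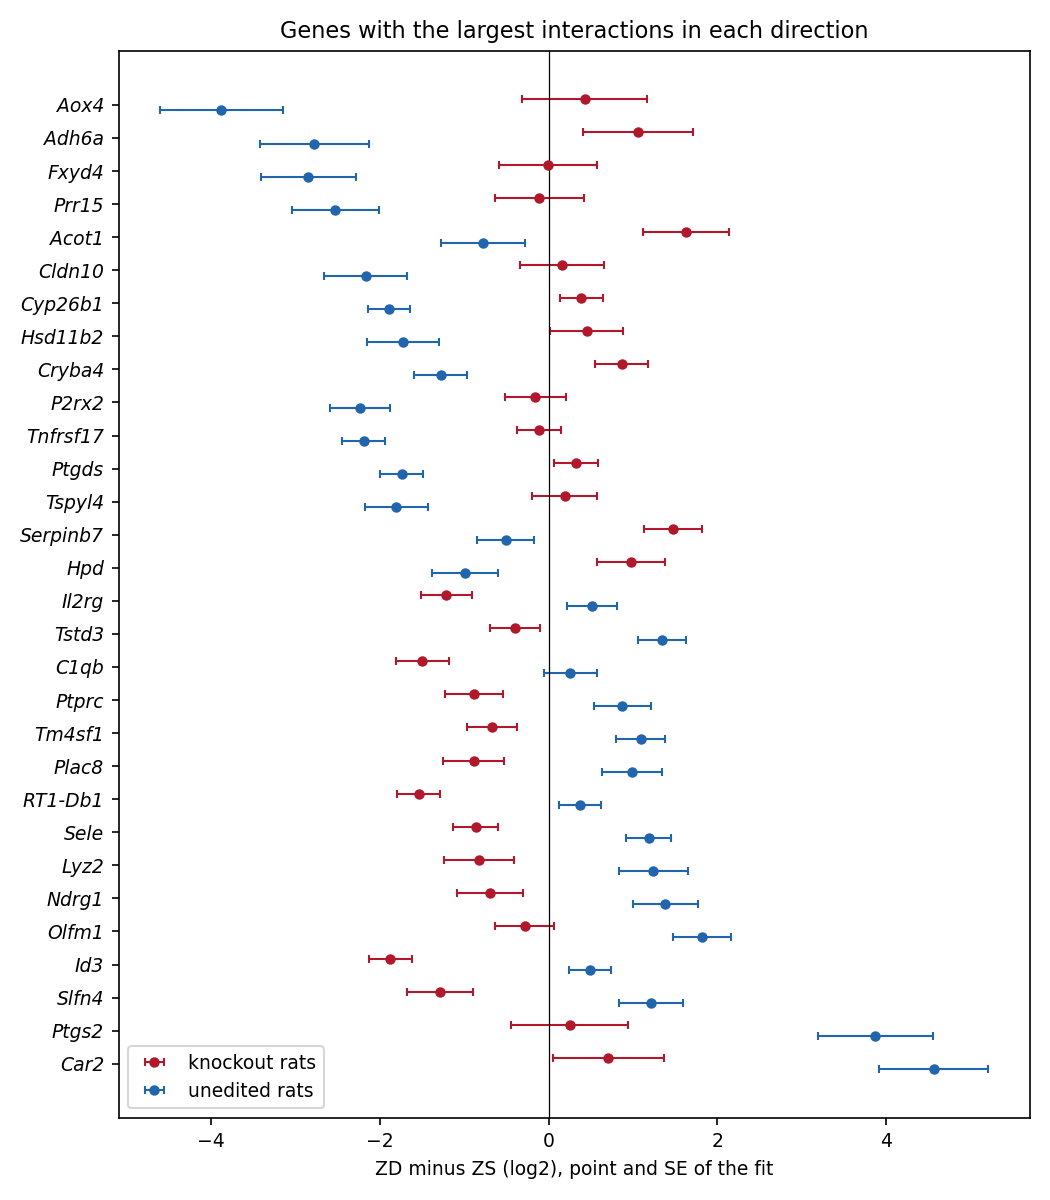
Diet difference (ZD minus ZS, log2, horizontal axis) with the SE of the fit as bars for the 15 genes with the largest interaction in each direction, in knockout rats (red) and unedited rats (blue). From Aox4 to Hpd the knockout point lies to the right, and from Il2rg to Car2 to the left.

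Enzymes of retinoid metabolism led the higher interactions. Retinoids, the vitamin A derivatives, steer squamous epithelium between keratinizing and mucous differentiation. Aox4, an aldehyde oxidase able to oxidize retinal, had log2 levels of 8.01 to 10.01 with a median of 9.72 in ZD knockout rats, against 8.99, 9.35, 8.22 and 9.66 in ZS knockout rats. In ZD unedited rats its levels were 6.27, 5.16, 6.07, 5.07 and 5.64, against 10.85, 9.74, 8.40, 10.24 and 8.36 in ZS unedited rats. The 2 groups overlapped in the knockout rats, and every ZD unedited rat lay below every ZS unedited rat. The diet difference was 0.43 (SE 0.74, adjusted p = 0.731) in knockout rats and -3.88 (SE 0.73, adjusted p = 0.00107) in unedited rats, and the interaction 4.30 (SE 1.04, adjusted p = 0.0127). With the beta-actin covariate it was 4.19 (adjusted p = 0.128). Adh6a, an alcohol dehydrogenase, followed at 3.83 (SE 0.92, adjusted p = 0.012), with diet differences of 1.06 in knockout rats and -2.77 in unedited rats, and was 3.30 (adjusted p = 0.18) with the beta-actin covariate.

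Cyp26b1, which inactivates retinoic acid, had the same pattern with less spread. It ranged from 9.95 to 10.42 with a median of 10.20 in ZD knockout rats, against 10.36, 9.97, 9.24 and 9.54 in ZS knockout rats. On ZD the unedited rats had 9.19, 8.81, 8.67, 7.86 and 9.34, against 10.48, 10.72, 10.55, 10.55 and 11.03 on ZS. All 5 ZD unedited rats were below the ZS unedited rats, and the knockout groups overlapped. The interaction was 2.28 (SE 0.35, adjusted p = 0.000565), a second probe set gave 2.15, and without arrays 32 and 35 it was 2.10 (adjusted p = 0.00355). Crabp2, a retinoic acid carrier, was the fourth of 24 measured retinoid genes that passed in the higher direction, against 3.78% of all genes, at 0.44 (SE 0.13, adjusted p = 0.0377), and lost the threshold in 12 of the 20 fits without 1 array; no member passed in the lower direction. The list median was 0.21, against -0.01 over all genes, and 3 members passed without arrays 32 and 35 and 1 with the beta-actin covariate. The retinal dehydrogenase Aldh1a1 at 0.87, the short-chain dehydrogenase Dhrs9 at 0.75 and the receptor Rarb at 0.35 did not pass.

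The other genes with the largest higher interactions belonged to several functions. Fxyd4, a regulator of the sodium pump, stood at 2.84 (SE 0.81, adjusted p = 0.0296) and Hsd11b2, which inactivates glucocorticoids, at 2.17 (SE 0.60, adjusted p = 0.0258). Their diet differences were -0.01 and 0.45 in knockout rats, and -2.85 and -1.72 in unedited rats. The tight junction gene Cldn10 had an interaction of 2.32, the ATP-gated channel gene P2rx2 2.08, the prostaglandin D synthase gene Ptgds 2.07, the B cell maturation receptor gene Tnfrsf17 2.07, the crystallin gene Cryba4 2.14, and Prr15 and Tspyl4 2.42 and 1.99. In knockout rats the acyl-CoA thioesterase gene Acot1 rose on ZD by 1.63 (SE 0.51, adjusted p = 0.0239) and the serpin gene Serpinb7 by 1.48 (SE 0.34, adjusted p = 0.00311), and their diet differences in unedited rats were -0.78 and -0.51. Hpd, an enzyme of tyrosine breakdown, had 0.97 in knockout rats and -0.99 in unedited rats.

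These 15 genes varied together between rats of a group. ZD knockout array 38 was the lowest of its group for 14 of the 15, ZS knockout array 32 for 13 and ZD unedited array 14 for 14. The genes are therefore not 15 independent results. Leaving out 1 array at a time, Prr15 lost the threshold in 13 of 20 fits, Cldn10 in 12 and Acot1 in 11. Hpd lost it in 4 (ZD unedited arrays 13 and 14, ZS knockout array 32 and ZS unedited array 17), Fxyd4 in 3 (ZD unedited arrays 13 and 14 and ZS knockout array 32), Hsd11b2 in 2 (ZD unedited array 14 and ZS knockout array 32) and Tspyl4 without ZS knockout array 32. Without arrays 32 and 35, Fxyd4, Prr15, Acot1, Cldn10, Hsd11b2, P2rx2, Tspyl4 and Hpd did not pass, with P2rx2 nearest the threshold at 1.88 (adjusted p = 0.0543). With the beta-actin covariate these 8 and Aox4, Adh6a, Tnfrsf17 and Serpinb7 did not pass, with Tnfrsf17 nearest at 1.83 (adjusted p = 0.055). Cyp26b1, Cryba4 and Ptgds passed in all 34 alternative fits, those without arrays 32 and 35 included.

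Egr2, an immediate early transcription factor, had opposite diet effects in the 2 genotypes. Its levels were 7.09 to 7.59 with a median of 7.22 in ZD knockout rats, against 6.72, 6.12, 6.01 and 6.21 in ZS knockout rats. They were 6.00, 6.07, 6.51, 6.20 and 6.08 in ZD unedited rats, against 6.84, 7.25, 7.22, 6.81 and 7.19 in ZS unedited rats. Neither pair of groups overlapped: Egr2 was higher on ZD in knockout rats and lower on ZD in unedited rats. It rose by 1.02 (SE 0.16, adjusted p = 9.02e-05) in knockout rats and changed by -0.89 (SE 0.16, adjusted p = 0.000683) in unedited rats, with an interaction of 1.92 (SE 0.23, adjusted p = 2.28e-05). It passed in all 34 alternative fits, with 1.81 (adjusted p = 0.00341) when the beta-actin 3' minus 5' difference was a covariate; a second, dimmer probe set of Egr2 gave -0.02. Among 28 immediate early genes, Klf4, a factor of suprabasal differentiation, also had a higher interaction at 0.44, lost in 16 of the 20 fits without 1 array and without arrays 32 and 35, and the phosphatase gene Dusp2 a lower one at -1.31; the median was 0.06.

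The carbonic anhydrase gene Car2 and the inducible cyclooxygenase gene Ptgs2 had the largest lower interactions. Car2 levels were 6.97 to 8.80 with a median of 8.01 in ZD knockout rats, against 6.80, 6.93, 7.74 and 7.41 in ZS knockout rats. In unedited rats they were 10.09, 11.67, 10.52, 10.80 and 8.59 on ZD, against 4.98, 5.64, 5.62, 7.26 and 5.33 on ZS. The unedited groups lay apart and the knockout groups overlapped. Car2 rose on ZD by 4.56 (SE 0.65, adjusted p = 0.000101) in unedited rats and had a diet difference of 0.71 (SE 0.66, adjusted p = 0.484) in knockout rats, an interaction of -3.85 (SE 0.92, adjusted p = 0.012). A second Car2 probe set gave -3.81, and with the beta-actin covariate the value was -3.36 (adjusted p = 0.174).

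Ptgs2, whose product makes the precursor of the inflammatory prostaglandins, was near the lower end of the scale in all groups but one. ZD knockout rats ranged from 2.79 to 4.14 with a median of 3.23, against 3.05, 3.20, 3.17 and 3.21 in ZS knockout rats. The 5 unedited rats on ZD were at 6.86, 9.14, 7.41, 8.29 and 3.15, against 3.08, 3.26, 3.04, 3.04 and 3.09 in those on ZS. The high values were those of 4 of the 5 ZD unedited rats; the fifth, array 15, lay at the level of the ZS groups. The interaction was -3.62 (SE 0.97, adjusted p = 0.0228), and -3.54 (adjusted p = 0.0654) without arrays 32 and 35 or -3.18 (adjusted p = 0.227) with the beta-actin covariate. Ptges, the prostaglandin E synthase that acts after it, followed with -1.17 (SE 0.36, adjusted p = 0.045), with diet differences of 0.01 in knockout rats and 1.19 in unedited rats, and was -1.32 (adjusted p = 0.0633) without arrays 32 and 35.

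**Figure D3:**
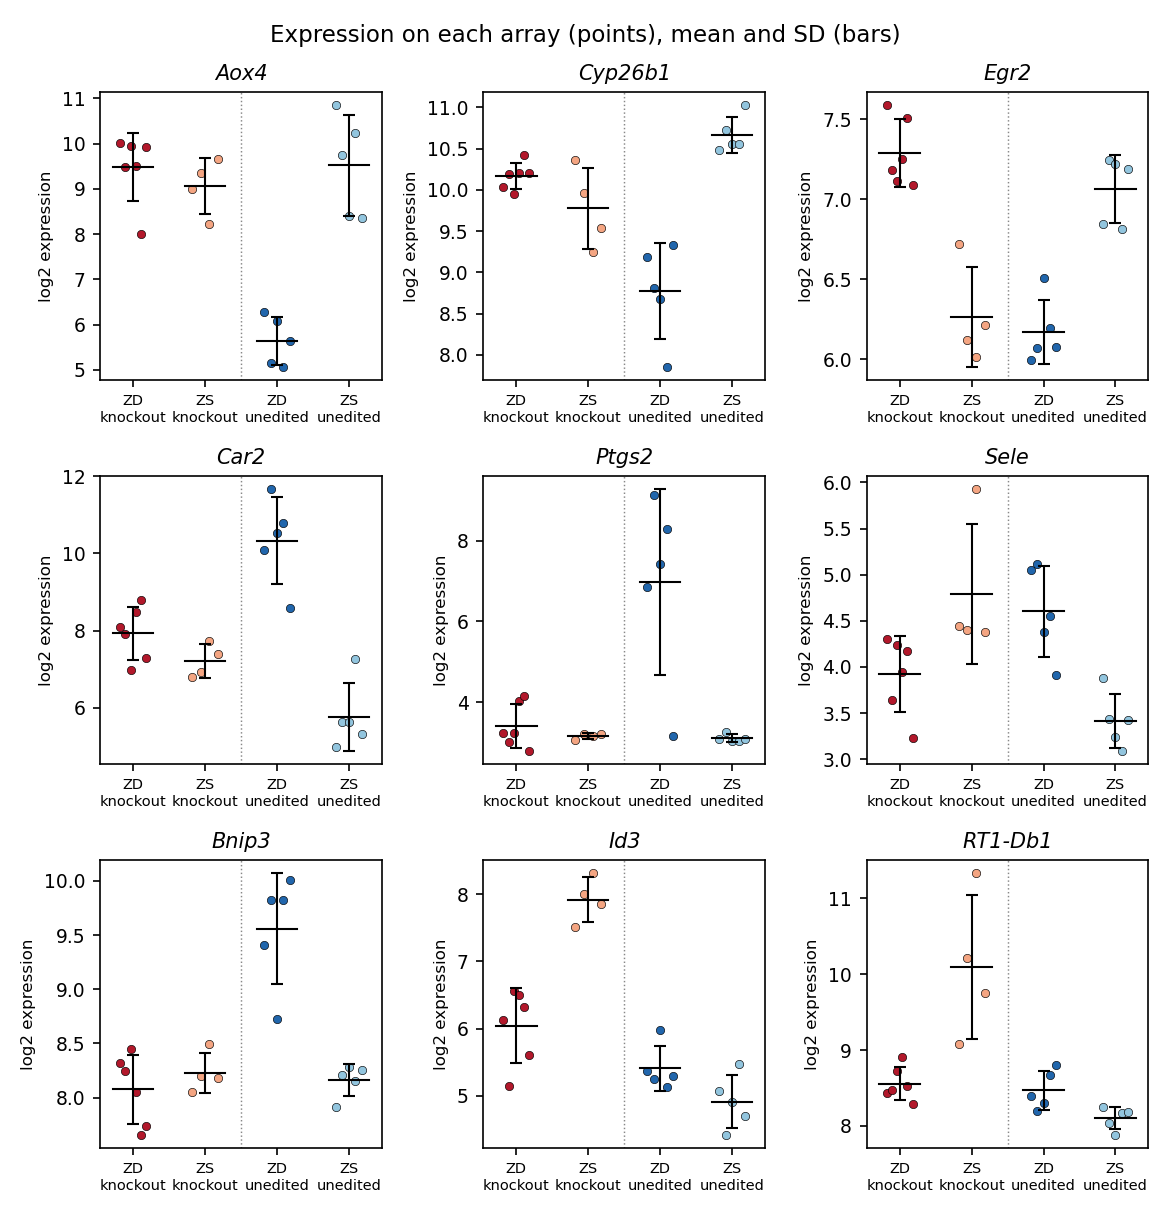
Log2 expression of 9 genes on each of the 20 arrays (points), with the group mean and SD as bars; the dotted line separates the genotypes. Egr2 is higher on ZD in knockout rats and lower on ZD in unedited rats, while Ptgs2 is raised on 4 of the 5 ZD unedited arrays only.

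NF-kB targets and inflammatory genes gave 6 lower and 1 higher interaction among 33 measured members, against 4.61% and 3.78% of all genes, with a median of -0.46 against -0.01 over all genes. The lower ones were Ptgs2, Ptges, the cytokine gene Il1b at -1.39, the adhesion genes Sele and Icam1 at -2.05 and -0.84, and the subunit gene Nfkb1 at -0.52. Il1rn, the natural antagonist of the interleukin-1 receptor, had the higher one: it rose on ZD by 1.16 (SE 0.20, adjusted p = 0.000194) in knockout rats, with a difference of -0.18 in unedited rats and an interaction of 1.34 (SE 0.28, adjusted p = 0.00448). Without arrays 32 and 35, 2 lower (Sele and Icam1) and 1 higher passed, and with the beta-actin covariate none and 1. The number of lower calls was 4 when any 1 of ZD knockout array 36, ZS knockout array 32, ZD unedited array 14 or ZS unedited arrays 17 and 18 was left out, and Ptges and Il1b lost the threshold in 14 and 10 of the 20 fits without 1 array. The calprotectin genes S100a8 and S100a9, which encode a protein of inflamed epithelium and neutrophils, did not pass, at -1.87 (SE 1.40, adjusted p = 0.464) and -2.00 (SE 1.60, adjusted p = 0.498). Their levels in ZD knockout rats ranged from 6.14 to 10.50 and from 5.97 to 10.56, a wide spread within a group.

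Sele encodes E-selectin, by which activated endothelium catches leukocytes, and it moved in opposite directions. Sele levels were 3.23 to 4.30 with a median of 4.06 in ZD knockout rats, against 4.45, 4.40, 5.93 and 4.38 in ZS knockout rats. They were 5.05, 5.11, 4.38, 4.55 and 3.91 in ZD unedited rats, against 3.88, 3.43, 3.24, 3.09 and 3.43 in ZS unedited rats. Sele was lower on ZD in all 6 knockout rats than in the 4 on ZS, and higher on ZD in all 5 unedited rats than in the 5 on ZS. It changed by -0.87 (SE 0.27, adjusted p = 0.0236) in knockout rats and rose by 1.19 (SE 0.27, adjusted p = 0.00416) in unedited rats. The interaction was -2.05 (SE 0.38, adjusted p = 0.00211), and -1.62 (adjusted p = 0.0092) without arrays 32 and 35, array 32 having the highest value at 5.93. With the beta-actin covariate it was -1.85 (adjusted p = 0.0635).

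Endothelial genes as a list had lower interactions throughout: 10 of 18 measured members passed, against 4.61% of all genes, none was higher, and all 18 were below 0. The median was -0.83, and the median diet difference was -0.50 in knockout rats and 0.36 in unedited rats. With all arrays, array 32 included, 9 of the 18 fell on ZD in knockout rats, against 12% of all genes. In unedited rats 5 rose, against 6.94%. Esm1, a gene of sprouting vessels, rose by 1.79 (SE 0.29, adjusted p = 0.00024) in unedited rats with 0.15 in knockout rats, and the VEGF receptor genes Kdr and Flt1 had interactions of -1.12 and -0.86. Egfl7, a secreted vessel protein, fell by 0.61 in knockout rats (adjusted p = 7.65e-05) with 0.07 in unedited rats, and the adhesion gene Icam2 had an interaction of -1.29. Array 32 had the highest endothelial level at 7.82: without it 4 members passed, Kdr and Flt1 no longer among them, and without arrays 32 and 35 4 passed, with a median of -0.65. With the beta-actin covariate 1 passed, with a median of -0.93.

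Genes of macrophages and of antigen presentation by MHC class II gave the largest share of lower interactions among the 25 lists. Of 23 measured members 15 passed, against 4.61% of all genes, none in the higher direction, and the list median was -1.07. The median diet difference was -0.83 in knockout rats and 0.25 in unedited rats. With all arrays, 16 of the 23 fell on ZD in knockout rats, against 12% of all genes. In unedited rats 1 rose, against 6.94% of all genes. The knockout count includes ZS array 32, without which the knockout diet calls over all genes were 1566 instead of 3049. RT1-Db1, a class II beta chain, had levels of 8.29 to 8.91 with a median of 8.50 in ZD knockout rats, against 9.08, 10.21, 11.34 and 9.75 in ZS knockout rats. ZD unedited rats had 8.40, 8.19, 8.29, 8.67 and 8.80, against 8.25, 8.03, 7.88, 8.16 and 8.18 in ZS unedited rats. The knockout groups lay apart, with ZD lower, and the unedited groups overlapped. Its interaction was -1.91 (SE 0.36, adjusted p = 0.00224), and -1.48 (adjusted p = 0.00536) without arrays 32 and 35 or -1.63 (adjusted p = 0.0767) with the beta-actin covariate.

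The class II alpha chain genes RT1-Ba and RT1-Da had interactions of -1.58 and -1.25, the invariant chain gene Cd74 -1.16, the complement genes C1qa, C1qb and C1qc -1.50, -1.75 and -1.56, and the lysozyme gene Lyz2 -2.07. For Lyz2 the diet effect that passed was in unedited rats, where it rose by 1.24 (adjusted p = 0.0421), with -0.82 in knockout rats. The scavenger receptor genes Cd163 at -0.81 and Mrc1 at -1.06 and the receptor gene Csf1r at -0.83 did not pass. The count moved with single arrays: 8 members passed without ZS knockout array 32 and 9 without ZS unedited array 18, while 19 passed without ZS knockout array 30. Without arrays 32 and 35 6 passed, with a median of -0.80, and with the beta-actin covariate none, with a median of -0.97. C1qa, C1qb and Lyz2 were among those lost in the fit without both arrays. Lyz2 also lost the threshold without ZS knockout array 31, ZS knockout array 32 or ZS unedited array 18. The list level was 7.32 to 7.92 in ZD knockout rats against 7.72 to 9.48 in ZS knockout rats, and 7.05 to 7.34 in ZD unedited rats against 6.81 to 7.12 in ZS unedited rats.

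Of 22 T and B cell genes, the pan-leukocyte gene Ptprc at -1.75 (SE 0.48, adjusted p = 0.025) and the T cell receptor gene Cd3e at -1.49 (SE 0.44, adjusted p = 0.0347) passed, both lower, where 4.61% of all genes did. Both lost the threshold when only the 20 arrays compared were fitted. In ZS knockout rats Ptprc had a median of 8.12 and a highest value of 10.52. The list median was -0.63, and -0.17 without arrays 32 and 35, and no member passed with the beta-actin covariate. On array 32 Cd3e stood at 8.65, against 5.82 to 6.68 on the other ZS knockout arrays. Without ZS knockout array 30, 9 members passed and without ZS knockout array 33, 4; Cd3e lost the threshold in 5 of the 20 fits without 1 array (ZD knockout arrays 36 and 39, ZD unedited arrays 11 and 14, and ZS unedited array 19). Other leukocyte genes among the largest lower interactions were the cytokine receptor chain gene Il2rg at -1.73 and Plac8 at -1.87. In ZS knockout rats Il2rg had a median of 6.97 and a highest value of 9.16, and Plac8 7.59 and 10.16. Both passed without arrays 32 and 35, and Plac8 lost the threshold when only the 20 arrays compared were fitted. Slfn4 had -2.50, but its second probe set gave 0.07. Of 25 interferon response genes only the immunoproteasome gene Psmb8 passed, at -1.17, a share near that of all genes called lower, with a list median of -0.30. It did not pass in 10 of the 20 fits without 1 array, or without arrays 32 and 35.

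Genes of glycolysis and the response to low oxygen were a further list with lower interactions: 11 of 29 passed, against 4.61% of all genes, none was higher, and the median was -0.61, against -0.01 over all genes. The median diet difference was -0.12 in knockout rats and 0.42 in unedited rats. In unedited rats 12 members rose on ZD (6.94% of all genes did) and 1 fell, and in knockout rats none rose and 5 fell (12% of all genes fell). The list level was 8.66 to 8.73 in ZD knockout rats against 8.81 to 8.89 in ZS knockout rats, and 8.49 to 9.25 in ZD unedited rats against 8.26 to 8.39 in ZS unedited rats. It was thus lower on ZD in every knockout rat and higher on ZD in every unedited rat than in any rat of the other diet.

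Bnip3, a mitophagy gene induced by low oxygen, had levels of 7.66 to 8.45 with a median of 8.15 in ZD knockout rats, against 8.05, 8.20, 8.49 and 8.18 in ZS knockout rats. On ZD the unedited rats had 9.41, 9.83, 8.73, 9.82 and 10.00, against 7.91, 8.21, 8.28, 8.16 and 8.25 on ZS. The unedited groups lay apart, with ZD higher, and the knockout groups overlapped. The interaction was -1.55 (SE 0.33, adjusted p = 0.00559), -1.50 (adjusted p = 0.0212) without arrays 32 and 35, and -1.46 (adjusted p = 0.0939) with the beta-actin covariate. The stress gene Ndrg1 had -2.08 (SE 0.55, adjusted p = 0.0217), the vasoactive peptide gene Adm -1.69, the mTOR inhibitor gene Ddit4 -1.07 and the angiogenic factor gene Vegfa -1.05. In these 4 genes, as in Bnip3, the diet effect that passed was a rise in unedited rats.

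The glycolytic enzyme genes of the list divided between the genotypes. Tpi1, Pgam1 and Ldha, with interactions of -0.79, -0.51 and -0.75, rose on ZD in unedited rats, by 0.71, 0.42 and 0.74, and their differences in knockout rats lay between -0.08 and -0.01. Gpi, Pfkl and Eno1, with interactions of -0.84, -0.83 and -0.97, fell on ZD in knockout rats, with diet differences of -0.55, -0.66 and -0.53, and did not pass in unedited rats. The glucose transporter gene Slc2a1 at -0.63, the hexokinase gene Hk2 at -0.88 and Car9 at -0.38 did not pass the interaction. Without arrays 32 and 35, 6 members passed and the median was -0.62, and with the beta-actin covariate 1 passed and the median was -0.57. Of the members named here Ndrg1, Adm, Ddit4, Tpi1 and Ldha did not pass in the fit without both arrays. Ndrg1 also lost the threshold without array 32, and Ldha in 15 of the 20 fits without 1 array.

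The hypoxia-inducible factors bind a short core motif, ACGTG, and the promoters of 2 of these genes are printed because 11 list members passed in the same direction. The motif was searched in the RefSeq promoters of rat build GRCr8, 250 bases before to 50 after the annotated start, as ACGTG or, on the other strand, CACGT; the 2 forms overlap in CACGTG. It was present in 16 of the 25 list members with a promoter in the table (64.0%), in 6 of the 10 members that passed and had one (Gpi, Pgam1, Eno1, Ldha, Bnip3 and Ddit4), and in 25.1% of the 11733 promoters of all genes tested. A match is a description of the letters, not evidence of binding. The Ldha promoter (chr1:106507842-106508141, plus strand) and the Bnip3 promoter (chr1:203154913-203155212, minus strand) follow, 5′ to 3′, with every match in capitals.
Ldha: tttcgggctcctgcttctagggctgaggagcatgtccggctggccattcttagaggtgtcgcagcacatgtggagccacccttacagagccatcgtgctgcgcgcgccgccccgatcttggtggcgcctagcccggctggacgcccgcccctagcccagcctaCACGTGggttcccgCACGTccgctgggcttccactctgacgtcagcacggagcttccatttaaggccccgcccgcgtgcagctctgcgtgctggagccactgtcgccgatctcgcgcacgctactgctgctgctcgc
Bnip3: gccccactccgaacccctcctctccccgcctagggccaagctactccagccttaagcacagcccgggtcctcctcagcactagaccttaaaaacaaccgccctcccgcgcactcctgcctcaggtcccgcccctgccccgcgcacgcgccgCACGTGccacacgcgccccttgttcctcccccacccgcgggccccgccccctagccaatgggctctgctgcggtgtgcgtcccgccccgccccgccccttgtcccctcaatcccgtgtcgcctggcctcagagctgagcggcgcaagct
In each promoter the 2 forms overlap in 1 CACGTG, and Ldha holds 1 further match, which gives 3 matches in Ldha and 2 in Bnip3.

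Id3, an inhibitor of helix-loop-helix transcription factors that is induced by BMP signalling, had a lower interaction, with a diet effect past the threshold in knockout rats alone. Its levels were 5.15 to 6.55 with a median of 6.23 in ZD knockout rats, against 7.50, 8.01, 8.31 and 7.85 in ZS knockout rats. The 5 unedited rats on ZD were at 5.37, 5.25, 5.99, 5.13 and 5.30, against 5.07, 4.42, 4.91, 5.47 and 4.70 in those on ZS. All 6 ZD knockout rats were below the ZS knockout rats by at least 0.95, and the unedited groups overlapped. The diet difference was -1.88 (SE 0.25, adjusted p = 1.46e-05) in knockout rats and 0.50 (SE 0.25, adjusted p = 0.193) in unedited rats, and the interaction -2.37 (SE 0.36, adjusted p = 0.000385). It passed in all 34 alternative fits, with -2.06 (adjusted p = 0.00126) without arrays 32 and 35 and -1.71 (adjusted p = 0.0423) with the beta-actin covariate. Other genes with large lower interactions were the neuronal secreted protein gene Olfm1 at -2.10, the membrane protein gene Tm4sf1 at -1.76 and Tstd3 at -1.75; of these Tm4sf1 did not pass without arrays 32 and 35, at -1.43 (adjusted p = 0.0584).

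Some of the genes with the smallest adjusted p, chosen after their values were seen, separated the knockout groups and not the unedited ones. Slc25a3, the mitochondrial phosphate carrier, had 11.11 to 11.33 with a median of 11.21 in ZD knockout rats, against 11.92, 12.17, 12.08 and 12.21 in ZS knockout rats. ZD unedited rats had 11.01, 11.09, 11.31, 11.37 and 11.03, against 11.07, 10.87, 11.01, 11.04 and 11.04 in ZS unedited rats. The knockout groups lay apart by more than 0.5 and the unedited groups overlapped. The interaction was -1.03 (SE 0.11, adjusted p = 6.71e-06), the smallest adjusted p of the comparison, and -0.84 (adjusted p = 0.00196) with the beta-actin covariate. Capns1, the small calpain subunit, gave -1.26 (SE 0.17, adjusted p = 8.6e-05) in the same way. For Rab14, a vesicle transport GTPase, the brightest of 5 probe sets gave 1.17 (SE 0.14, adjusted p = 2.28e-05) while the other 4 gave values from -0.41 to 0.26, so that no single value can be given for the gene. The epithelial transcription factor gene Elf5, with an interaction of 1.53 (SE 0.22, adjusted p = 0.000205), passed in all 34 alternative fits. Its diet difference passed in both genotypes, with opposite signs. It was 0.48 (adjusted p = 0.0295) in knockout rats and, larger in size, -1.05 (adjusted p = 0.000104) in unedited rats. For the ligand gene Bmp6 the brightest of 4 probe sets gave 1.48 and the other 3 between -0.05 and 0.08.

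Published miR-31 targets ranged in their interactions from -2.05 for Sele to 1.47 for Frk. Of 30 measured members 4 had a higher and 2 a lower interaction, which is 13.3% and 6.67% against 3.78% and 4.61% of all genes. The list median was 0.15, against -0.01 over all genes, with a median diet difference of 0.03 in knockout rats and -0.10 in unedited rats. In unedited rats 9 members fell on ZD and 4 rose, against 6.95% and 6.94% of all genes, and in knockout rats 4 rose and 3 fell, against 9.47% and 12%. With the beta-actin covariate 2 members were higher and none lower. Some targets, such as Sele, belong to other lists as well.

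Frk, a Src-family tyrosine kinase, had levels of 6.44 to 7.10 with a median of 6.94 in ZD knockout rats, against 6.79, 6.77, 6.55 and 6.73 in ZS knockout rats. On ZD the unedited rats had 6.37, 6.22, 6.01, 5.45 and 6.04, against 7.36, 7.22, 7.19, 7.64 and 7.25 on ZS. The unedited groups lay apart, with ZD lower, and the knockout groups overlapped. Frk had an interaction of 1.47 (SE 0.30, adjusted p = 0.00399), 1.39 (adjusted p = 0.0197) without arrays 32 and 35, and 1.39 (adjusted p = 0.0767) with the beta-actin covariate. The phosphatase gene Ppp6c rose on ZD in knockout rats by 0.27 (SE 0.08, adjusted p = 0.0154), changed by -0.33 (SE 0.08, adjusted p = 0.00615) in unedited rats, and had an interaction of 0.60 (SE 0.11, adjusted p = 0.00211). The deubiquitinase gene Bap1 had 0.39 (SE 0.09, adjusted p = 0.00622), with -0.03 in knockout and -0.42 in unedited rats, and the chromatin remodelling gene Arid1a had 0.48 (SE 0.14, adjusted p = 0.0353). Arid1a lost the threshold in 9 of the 20 fits without 1 array and without arrays 32 and 35, and without array 30 6 members were higher. Besides Sele, the lower ones held Csf1, the macrophage growth factor, at -0.37, which did not pass without arrays 32 and 35.

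Egln3 and Stk40 did not pass the interaction. Egln3 levels were 8.98 to 9.67 with a median of 9.53 in ZD knockout rats, against 9.73, 9.42, 9.03 and 9.93 in ZS knockout rats. The 5 unedited rats on ZD were at 8.63, 8.93, 7.78, 7.79 and 8.86, against 9.26, 9.47, 9.75, 8.68 and 9.38 in those on ZS. Its interaction was 0.82 (SE 0.33, adjusted p = 0.118), which joins a diet difference of -0.09 in knockout rats to one of -0.91 in unedited rats. Stk40 had 0.24 (SE 0.11, adjusted p = 0.207), from -0.16 in knockout rats and -0.40 in unedited rats. For both genes the diet difference was below 0 in each genotype and nearer 0 in knockout rats, by an amount that did not pass after adjustment.

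Zinc genes, keratins and proliferation genes were looked at next. Of 25 zinc transporter and metallothionein genes 1 had a higher and 3 a lower interaction, against 3.78% and 4.61% of all genes. The higher one was the importer gene Slc39a2 at 1.59 (SE 0.35, adjusted p = 0.0066), with diet differences of 0.58 in knockout rats and -1.01 in unedited rats. In the fits without 1 array Slc39a2 passed throughout, and with the beta-actin covariate it was 1.40 (adjusted p = 0.124). The exporter gene Slc30a5 and the importer genes Slc39a13 and Slc39a14 had lower ones between -0.42 and -0.37; a second probe set of Slc39a14 gave 0.10, and none of the 3 passed without arrays 32 and 35, and each lost the threshold in at least 12 of the 20 fits without 1 array. The intestinal zinc importer gene Slc39a4 stood at 0.18 (SE 0.16, adjusted p = 0.542).

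The wound keratin genes Krt6c and Krt17 rose on ZD in unedited rats, by 3.57 and 3.22. In knockout rats Krt6c rose by 1.54 (adjusted p = 0.0407) and Krt17 had 0.77. Their interactions of -2.03 (SE 0.75, adjusted p = 0.0885) and -2.45 (SE 0.87, adjusted p = 0.0765) did not pass. Of 25 genes of the stress keratin and wound list only the urokinase receptor gene Plaur passed, at -0.64. That is a share near the 4.61% of all genes called lower. The list median was -0.63, and Plaur lost the threshold without array 32. In the cornified and suprabasal list 3 of 27 passed, all higher (3.78% of all genes were): the envelope-associated gene Sbsn at 0.41, the transcription factor gene Grhl1 at 0.77 and the protease gene Klk8 at 0.67, and none passed without ZS knockout array 32, or without arrays 32 and 35. The basal keratin gene Krt14 had -0.66 (SE 0.27, adjusted p = 0.126) and the suprabasal keratin gene Krt13 -0.04 (SE 0.05, adjusted p = 0.716).

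No cell cycle gene of 44 passed the interaction, where 8.39% of all genes did. The list median was 0.19, with diet differences of 0.62 in knockout rats and 0.41 in unedited rats, and 34 of 44 were above 0. The proliferation marker Mki67 was 8.34 to 10.14 with a median of 8.83 in ZD knockout rats, against 8.45, 7.70, 7.74 and 8.46 in ZS knockout rats. It was 8.71, 9.07, 8.80, 9.73 and 7.18 in ZD unedited rats, against 8.43, 8.62, 7.96, 8.50 and 8.53 in ZS unedited rats. ZD and ZS rats overlapped in both genotypes, and the interaction was 0.61 (SE 0.61, adjusted p = 0.605). The 19 smooth muscle genes likewise gave no call, with a median interaction of 0.54 and diet differences of -0.97 in knockout rats and -1.46 in unedited rats: Myh11 had 1.47 (SE 0.72, adjusted p = 0.214) and Cnn1 1.09 (SE 0.78, adjusted p = 0.434). The smooth muscle level was lower on ZD in both genotypes, with overlap among the knockout rats. Its part in the results was not tested beyond the fit with that level as a covariate. That fit gave 1377 genes with an interaction, 1048 of them among the 1193. Because the level separated the diets in unedited rats, the fit also removes diet effect.

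**Figure D4:**
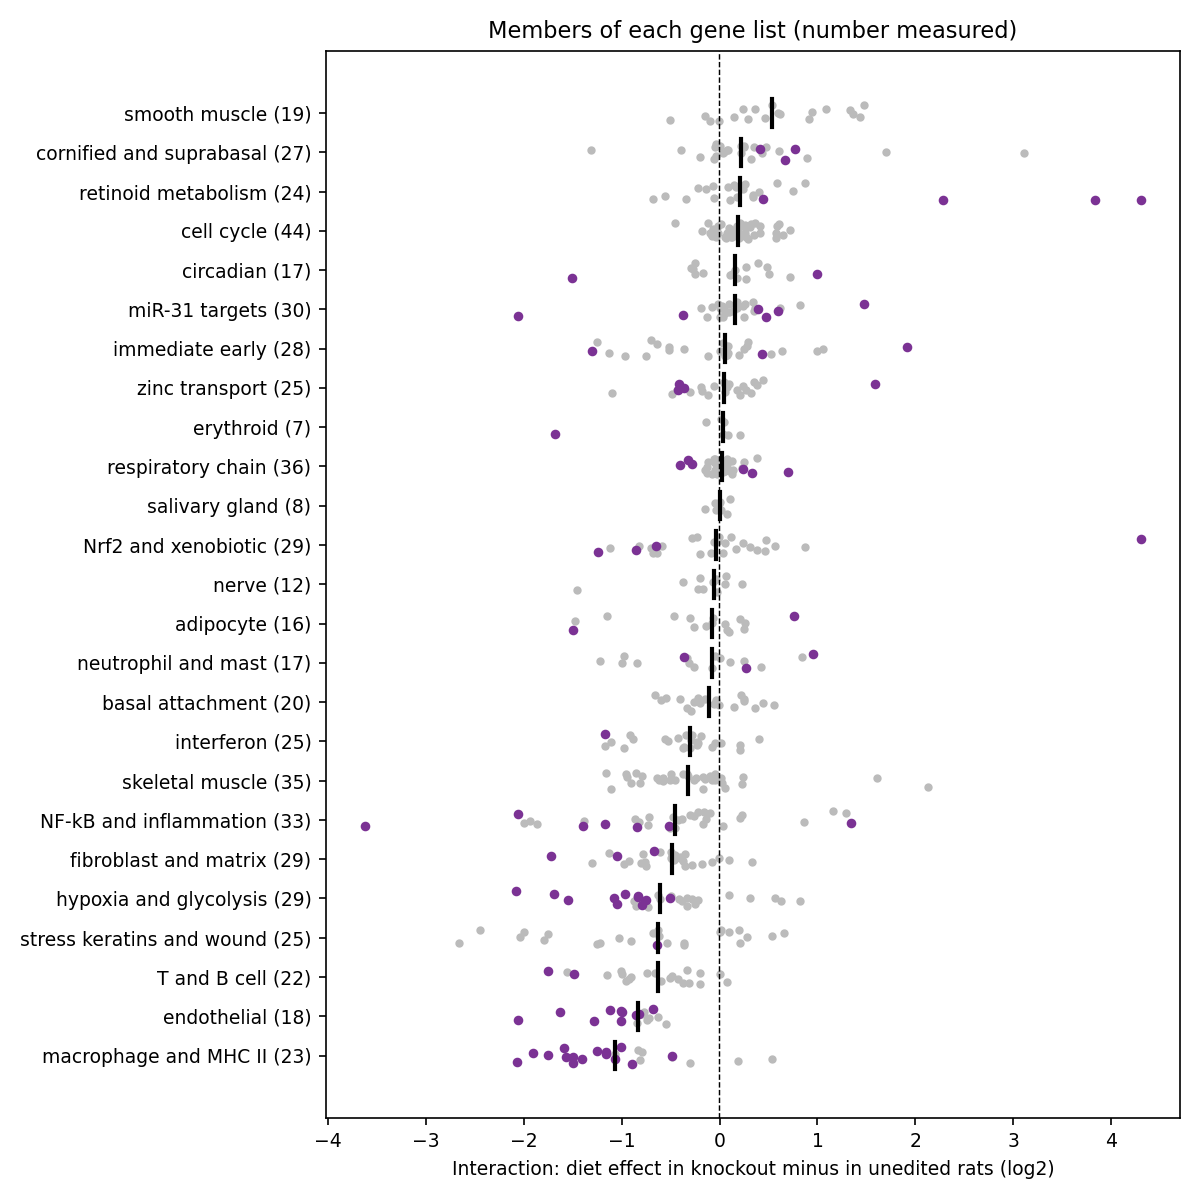
Interaction (log2, horizontal axis) of each measured member of 25 gene lists, with the number measured in brackets. Purple points passed the limma threshold, grey points did not, black bars are list medians, and the dashed line is the median of all genes; the macrophage list is lowest at -1.07, with 15 of 23 members past the threshold, and smooth muscle is highest at 0.54 with none.

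Fibroblast, xenobiotic and respiratory genes gave a few calls each. Lox, the collagen cross-linking enzyme, rose on ZD by 1.95 (SE 0.26, adjusted p = 8.04e-05) in unedited rats, with 0.23 in knockout rats and an interaction of -1.72 (SE 0.38, adjusted p = 0.0067), or -1.78 (adjusted p = 0.0719) with the beta-actin covariate. It led 3 of 29 fibroblast and matrix genes that passed, all lower (4.61% of all genes were), with a median of -0.49; 1 passed without arrays 32 and 35. The glutathione transferase genes Gstm1 and Mgst2 had interactions of -1.24 and -0.85, each from a rise in unedited rats of 1.24 and 1.06, and the epoxide hydrolase gene Ephx1 had -0.65, from a fall in knockout rats with a diet difference of -1.04. Of 36 respiratory chain genes 3 were higher, led by Cox5a at 0.70, and 3 lower, led by Ndufa8 at -0.41, with a median of 0.02, where 3.78% of all genes were higher and 4.61% lower. The beta globin gene Hbb had -1.68 (SE 0.45, adjusted p = 0.0216), the clock gene Nr1d1 -1.51 (SE 0.38, adjusted p = 0.0169) and the clock output gene Hlf 0.99, at the threshold. Of these, Ephx1 lost the threshold in 16, Mgst2 in 15 and Hlf in 17 of the 20 fits without 1 array, and Hbb without ZS knockout array 31. Without arrays 32 and 35, Hbb was -1.70 (adjusted p = 0.0525), Nr1d1 -1.46 (adjusted p = 0.0534), and Hlf, Mgst2 and Ephx1 did not pass either; with the beta-actin covariate Hbb was -1.43 (adjusted p = 0.234) and Nr1d1 -1.38 (adjusted p = 0.184). Skeletal muscle, basal attachment, nerve and salivary gland lists gave no call among 35, 20, 12 and 8 genes, where 8.39% of all genes were called. In lists this small that share is few genes, so the lack of a call is given as a description.

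Counts depended on single arrays and on the control probe measures. Leaving out 1 array at a time gave 615 genes without ZS knockout array 32, of which 590 were among the 1193, and 862 to 1519 genes without any other. Of the 1193 genes, 521 passed in all 20 of these fits. With the beta-actin 3' minus 5' difference as a covariate 147 genes passed, and with the macrophage list level as a covariate 268; the macrophage level, too, was higher in ZS than in ZD knockout rats, with overlap. In all 34 alternative fits that test genes, 74 genes passed, 31 higher and 43 lower, among them Egr2, Cyp26b1, Elf5, Cryba4, Ptgds, Id3, Slc25a3 and Capns1.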

How the data were processed

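Values are the deposited log2 expression values per probe set of an Affymetrix rat array, which the authors made with Affymetrix Expression Console and RMA, per the submitters' processing notes. The versions are not given in the sources used here. There were 30 arrays with 31099 probe sets each. The knockout arrays had higher medians and may have been normalized separately, which no label states. A single gene symbol was given for 20826 probe sets, more than 1 for 436 and no usable one for 9780; the other 57 were control probe sets. By gene ID, 20758 matched the reference table. The probe set with the highest mean over all arrays stood for each of 14217 genes, and 4525 genes had more than 1.

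Models were fitted with limma 3.58.1 in R 4.3.3 to all 30 arrays, with 1 coefficient per group (24 residual degrees of freedom) and Benjamini-Hochberg adjustment over all genes. The threshold was an adjusted p of 0.05. The fit was tested on simulated data. Precision is limited by the small groups of 4 to 6 rats: the median SE of an interaction was 0.15. p-values measure the spread between these arrays, taken as 1 rat each.

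The comparison, gene lists and tests were chosen with earlier results of these data known. Genes were named by rule: the 15 largest called interactions in each direction (locus symbols left out), in each of 25 lists up to 4 members by lowest adjusted p, and a fixed set of Egln3, Stk40, Ptgs2, S100a8, S100a9, Car2, Krt6c, Krt17, Krt14, Krt13, Mki67, Slc39a4, Myh11, Cnn1 and Aox4. Other names, among them Slc25a3, Capns1, Rab14, Elf5, Bmp6, Adm, Ldha, Kdr, Flt1, Il1b, Ptges, Arid1a and further list members, were chosen after their values were seen. A test of miR-31 sites was not made, since transcript sequences were not used here. The alternatives included a fit to only the 20 arrays compared. They also covered other normalizations, filters, variance models, array weights, probe set choices, muscle levels as covariates and leaving out each array. Those with the beta-actin difference or macrophage level as covariate, or without arrays 32 and 35, were added after seeing the data.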

Additional observations from a re-analysis of the deposited data

Results flagged for a closer look

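The diet effect differed between knockout and unedited rats, by a test of the difference itself (limma interaction), for 1193 genes. The largest higher values were those of Aox4 (4.30), Adh6a (3.83), Fxyd4 (2.84), Prr15 (2.42), Acot1 (2.41), Cldn10 (2.32), Cyp26b1 (2.28), Hsd11b2 (2.17), Cryba4 (2.14), P2rx2 (2.08), Tnfrsf17 (2.07), Ptgds (2.07), Tspyl4 (1.99), Serpinb7 (1.99) and Hpd (1.96). The largest lower values were those of Car2 (-3.85), Ptgs2 (-3.62), Slfn4 (-2.50), Id3 (-2.37), Olfm1 (-2.10), Ndrg1 (-2.08), Lyz2 (-2.07), Sele (-2.05), RT1-Db1 (-1.91), Plac8 (-1.87), Tm4sf1 (-1.76), Ptprc (-1.75), C1qb (-1.75), Tstd3 (-1.75) and Il2rg (-1.73).

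A single array stood away from its group in 15 of the 172 sets of 4 to 6 arrays examined. Chance gives about 1 in 20 for independent sets, but these sets share arrays and genes that vary together. The number is therefore no test of an excess over chance. Among genes, ZD knockout array 38 was low for Aox4 (8.01) and Hpd (6.61). ZS knockout array 32 was low for Fxyd4 (8.31) and high for Sele (5.93), and its endothelial list level was high at 7.82. Among unedited rats on ZD, array 13 was high for Id3 (5.99) and array 14 for Olfm1 (8.76). Among those on ZS, array 20 was low for Fxyd4 (9.94), array 19 high for Car2 (7.26) and array 17 high for Ptgs2 (3.26), a small departure within a narrow range.

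In the control probe sets, ZD knockout array 35 had high 3' minus 5' differences for beta-actin (4.08), GAPDH (1.23) and the dap spike-in (3.08). ZD knockout array 39 had a high 5S ribosomal RNA value (8.01), and ZD unedited array 13 a high GAPDH difference (0.34).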

How the results depend on the processing

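No paired analysis was possible because the rat numbers in the labels are unique to each rat, so that the groups share none. The 1193 genes became 147 with the beta-actin difference as a covariate, 268 with the macrophage level, 533 without arrays 32 and 35, and 615 to 1519 over fits that left out 1 array; under the other alternatives for genes the number lay between 959 and 1612. Of the 1193 calls 45% were higher, against 58.5% of 959 with arrays centred and scaled. Genes with a diet effect in knockout rats were 3049, against 1543 with smooth muscle level, 983 with the beta-actin difference and 748 with macrophage level as a covariate, 1583 without arrays 32 and 35, and 1566 (without array 32) to 3244 over fits without 1 array. In unedited rats they were 1974, against 1191 to 2424 over fits without 1 array, the lowest without ZD array 14. With smooth muscle level, which separated the diets in these rats, they were 146. The cause of these shifts was not tested. Of the 30 genes with the largest interactions, 4 passed with the beta-actin difference, 6 with macrophage level and 17 without arrays 32 and 35. Signs turned for S100a8 (0.26) and S100a9 (0.20) and Ahsp (-0.047) with the beta-actin difference, for Krt13 (0.10) after centring and scaling, and for Mki67 (-0.0096), Irf1 (0.0551), Cd3g (0.31), Epb42 (-0.0538) and Smr3b (-0.008) with macrophage level. They turned for Pip (0.0205) with smooth muscle level, and in some fits without 1 array, over which the interaction of Prb1 lay between -0.0857 and 0.0186 and the interaction of Pip between -0.0893 and 0.0366; none of these genes passed with all arrays. Signal near the lower end of the scale limits Prb1, Pip and Smr3b.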
